A study of Mus musculus with 6 samples.

Results

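The 10 genes described here encode effector cytokines of helper T cells, namely Ifng, Il4, Il5, Il13, Il17a, Il17f, Il21, Il22, Tnf and Csf2. They were chosen by symbol, and all 10 were found among the 24421 genes of the count matrix. The matrix holds RNA-seq counts of CD4+YFP+ Treg cells sorted from the spleens of untreated female C57BL/6 mice, 8 to 11 weeks old, with 3 Foxp3Cre mice (WT) and 3 Foxp3Cre miR-142fl/fl mice (KO) and 1 library per mouse. Both groups carry Cre recombinase fused to YFP under the endogenous Foxp3 promoter, so the control mice also express Cre, and deletion of miR-142 in the KO mice is limited to cells in which that promoter is or has been active. The rest of the immune system in KO mice keeps the miRNA, and the Treg cells were taken from whole animals, so effects of the deletion within the Treg cell and of the surrounding tissue cannot be told apart.

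Helper T cells act on other cells through the cytokines they secrete, and the cytokine defines the subset. Th1 cells make IFNγ (Ifng), which activates macrophages, Th2 cells make IL-4, IL-5 and IL-13, which drive IgE production, eosinophils and mucus, and Th17 cells make IL-17A, IL-17F and IL-22, which act on epithelia and recruit neutrophils. Follicular helper T cells make IL-21, a helper factor for B cells, while TNF (Tnf) and GM-CSF (Csf2) are made by several subsets as well as by myeloid cells. Treg cells restrain such responses, and the transcription factor Foxp3 is known to hold many of these genes at a low level in them. Cytokine mRNAs are typically short-lived, and AU-rich elements in their 3′ UTRs are bound by proteins that speed or slow their decay.

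The miRNA removed in the KO cells gives rise to a pair of mature strands, shown because their seeds define the sites searched for in the cytokine mRNAs. Each is printed 5′ to 3′ from RefSeq (GRCm38.p6) with the seed, bases 2 to 8, in capitals; both lie on the plus strand, the 5p strand at chr11:87756867-87756887 and the 3p strand at chr11:87756903-87756925.
mmu-miR-142a-5p: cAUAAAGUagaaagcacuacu
mmu-miR-142a-3p: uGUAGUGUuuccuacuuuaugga

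None of the 10 cytokine genes held a 7-base match to the miR-142-3p seed in its longest annotated 3′ UTR (GENCODE vM21, GRCm38). The motifs searched on the transcript strand were ACACTAC and CACTACA, with ACACTAA and AACACTA as versions shifted by 1 base, and any of these 4 overlapping motifs was present in 24.2% of the 3′ UTRs of 10791 tested genes. Except in Il21, the cytokine 3′ UTRs measured 104 to 1092 bases, shorter than the median of 1377 bases over these tested genes. The shares for the 3p and 5p motifs were not adjusted for length. Matches to the miR-142-5p seed, ACTTTAT or CTTTATA, were found in Il21 alone of the 10, against 24% of the tested genes. They lay at 3 places in its 3′ UTR of 2578 bases, at chr3:37224755-37224777, chr3:37224584-37224606 and chr3:37222847-37222869 on the minus strand, in the windows below, where the capitals mark the match.
Il21, first place: actaacatCTTTATActctacaa
Il21, second place: tcaagttcCTTTATAagctaata
Il21, last place: aatgatgtACTTTATAacttaat
A match of letters does not show that the site is used.

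A feature the 10 genes shared was the AU-rich pentamer ATTTA, which stood in the 3′ UTR of 10 of the 10, against 70.7% of the tested genes. Its density ranged from 3.49 per kb in Il21 to 28.4 per kb in Csf2, where the median tested gene had 1.2 per kb. The AU-rich nonamer TTATTTATT, which contains the pentamer, was present in 5 of the 10 (Il13, Il21, Il22, Tnf and Csf2), against 8.22% of the tested genes, with 5 overlapping or separate copies in Tnf and 4 in Csf2. The windows that held most pentamers within 30 bases are shown for the genes whose values are given in most detail, with the pentamers in capitals. They lie at chr17:35199681-35199707 for Tnf, chr11:54247327-54247351 for Csf2 and chr11:53612497-53612513 for Il4, all on the minus strand, and at chr10:118445333-118445361 on the plus strand for Ifng.
Tnf: ttATTTAttATTTATTTAttATTTAtt
Csf2: atATTTATTTATTTATTTATTTAtt
Il4: atATTTAtatATTTAta
Ifng: ctATTTAttaatATTTAaaactATTTAta
Il4 reached 19.2 pentamers per kb with only 2 pentamers, since its 3′ UTR measured 104 bases.

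**Figure D1:**
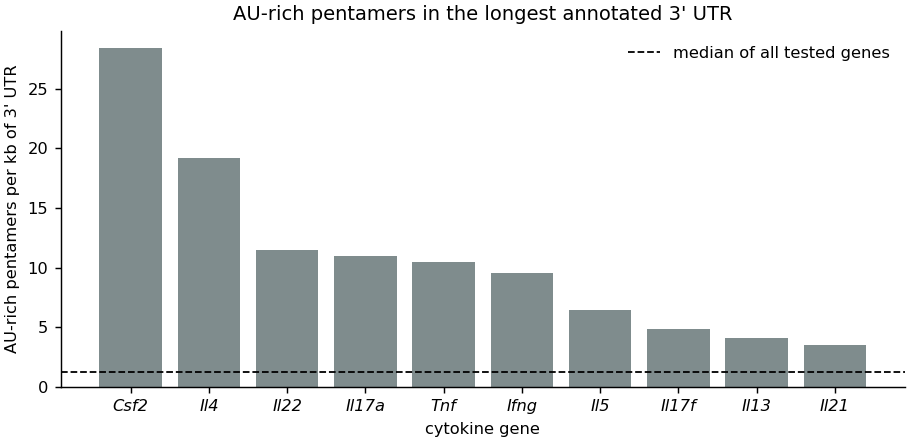
Bars show the number of AU-rich pentamers per kb in the longest annotated 3′ UTR of each cytokine gene, and the dashed line is the median of the tested genes that have a 3′ UTR annotation (1.2 per kb). Every cytokine gene lies above the line, from 3.49 per kb in Il21 to 28.4 per kb in Csf2.

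Total counts ranged from 13883069 to 24042994 per library, so that 3 counts, taken as the floor, equal between 0.125 and 0.216 CPM, the count scaled to a common library total. Mir142b, the antisense annotation of the deleted gene, had 147, 101 and 105 counts in the WT libraries and 7, 5 and 5 in the KO libraries, while Mir142 itself was at 0 throughout. Summed Treg cell markers (Foxp3, Il2ra, Ctla4, Ikzf2, Tnfrsf18, Cd4 and Cd3e) lay between 5047 and 5642 CPM in WT and between 6548 and 7579 CPM in KO libraries. Il2ra gave most of the difference (738 to 837 CPM in WT, 2187 to 3030 CPM in KO), while Cd4 (1022 to 1093 against 807 to 913 CPM) and Cd3e (637 to 743 against 565 to 585 CPM) were lower in each KO library than in each WT library. KO replicate 1 stood apart in markers of other cells. There 12 monocyte and macrophage genes summed to 2762 CPM, against 74.6 and 19.2 CPM in KO replicates 2 and 3 and 8.0 to 11.8 CPM in WT. The sum of 12 neutrophil genes was 942 CPM, against 16.0 and 48.4 CPM in KO replicates 2 and 3 and 4.44 to 6.20 CPM in WT, and that of 9 B cell genes 242 CPM, against 8.07 to 23.2 CPM in the other 5 libraries. KO replicate 1 was the highest library for 12 of 12, 11 of 12 and 9 of 9 of these genes, so results on cytokines are also given without it. Leaving it out does not remove the smaller differences that remain: of the 7 lists of other cells, each except the B cell list was higher in each KO library than in each WT library. The sum of 9 genes of CD8 T and NK cells was 27.3 to 31.3 CPM in WT and 51.9 to 101 CPM in KO (Klra8 was at 0 throughout). Trdc, the γδ T cell gene of that list, was not in the matrix. Eomes made up most of the sum in KO replicates 2 and 3, at 39.98 and 29.4 CPM, against 4.41 to 6.81 CPM in WT. Cd8a and Gzma were also higher in each KO library, but Klrb1c was lower (at most 1.34 against at least 2.42 CPM). Cd8b1 and Prf1 did not exceed the highest WT library in KO replicates 2 and 3. The sum of 9 genes of mast cells, basophils and eosinophils was 1.33 to 1.68 CPM in WT and 16.0, 2.16 and 6.61 CPM in KO replicates 1, 2 and 3. For 7 genes of group 2 and 3 innate lymphoid cells, of which Il7r and Klrg1 are also made by Treg cells and gave most of the sum, it was 300.4 to 414 CPM in WT and 612 to 905 CPM in KO. The 6 erythroid genes summed to at most 1.16 CPM in WT and to between 2.77 and 12.96 CPM in KO, with Hba-a1, Hbb-bs and Hbb-bt at 0 throughout.

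Group values are given as mean ± SD over the 3 mice (n = 3 per group), and log2FC is the log2 fold change of KO over WT with its standard error (SE). Of the 10 cytokine genes, 4 (Tnf, Ifng, Il4 and Il21) had more than 1 CPM in at least 3 libraries and were tested. Of these, Il4 alone was called, higher in KO Treg cells, at a false discovery rate (FDR) under 0.05 in edgeR's quasi-likelihood F (QLF) test. Among all 11658 tested genes 18.8% were called, 11.6% higher and 7.27% lower in KO, so 1 call among 4 genes is close to the background share. The other 6 genes were at or near the floor: Il17a and Il22 were at the floor in every library, and Il5, Il13, Il17f and Csf2 in at least 1. With a floor of 10 counts in place of 3, 5 genes were at the floor in every library and only Tnf, Ifng and Il4 were above it in each.

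**Figure D2:**
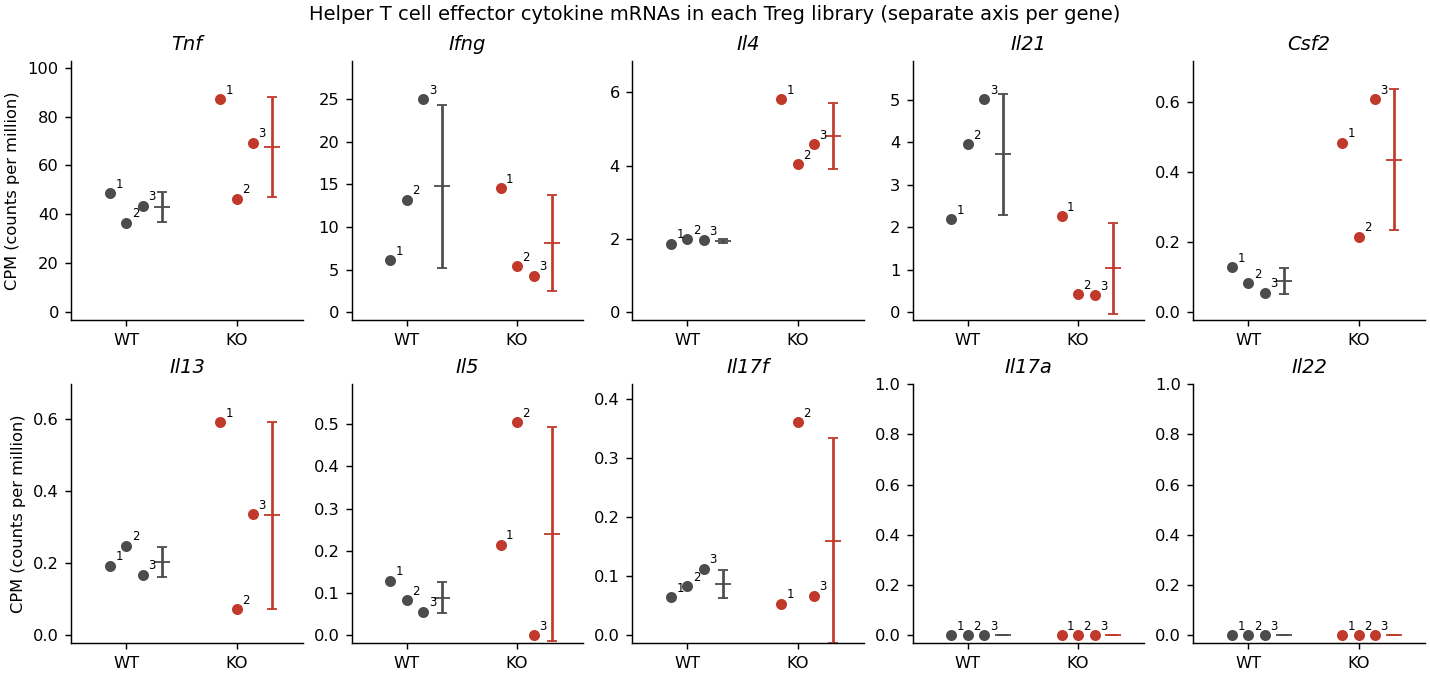
Each panel shows 1 cytokine gene, with CPM on its own linear axis, points for the 3 WT (grey) and 3 KO (red) libraries labelled by replicate number, and a bar for the mean ± SD of each group. The WT and KO points separate for Il4 and Csf2, overlap for the others, and lie at 0 throughout for Il17a and Il22.

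Il4, the cytokine that starts Th2 differentiation and IgE class switching, was higher in KO Treg cells. Replicates 1, 2 and 3 had 29, 48 and 35 counts in the WT group and 108, 56 and 68 counts in the KO group. Scaled to depth, WT replicates had 1.87, 1.996 and 1.97 CPM, and KO replicates 5.81, 4.03 and 4.59 CPM. The WT libraries lay close together, and each KO library was above each WT library. The mean rose from 1.95 ± 0.0655 to 4.81 ± 0.907 CPM (n = 3 each), a log2FC of 1.39 (SE 0.23, 95% interval 0.85 to 1.92, FDR = 0.00833 in the QLF test), or 2.61-fold. Without KO replicate 1 the log2FC was 1.21 (SE 0.24, FDR = 0.0132 in the QLF test), and over the 6 fits that each left out 1 library the FDR lay between 0.00991 and 0.0468. With no CPM filter and 1 WT library left out as well, the FDR of Il4 rose to between 0.0828 and 0.0989. An exact two-sided permutation test of log2(CPM + 0.5) gave p = 0.1, the smallest that 3 libraries against 3 allow. Non-overlap of the groups is common in these data, since 42.6% of the tested genes showed it and 16.7% had KO above WT. For other cells that can make IL-4, the mast cell, basophil and eosinophil list and the innate lymphoid list were both higher in each KO library, as given above. The innate lymphoid sum was 612, 647 and 905 CPM in KO replicates 1, 2 and 3, lowest in the replicate with the highest Il4. In KO replicate 2, where Il4 stood at 4.03 CPM, the basophil and mast cell genes Mcpt8, Fcer1a and Ms4a2 were at 0. Siglecf was also at 0 there, and Cpa3 was below WT. Hdc, Prg2, Gata2 and Epx of the same list stood at 1.01, 0.648, 0.288 and 0.0720 CPM in that library. Their highest WT values were 0.900, 0, 0.0416 and 0.0645 CPM. Klrg1, which Treg cells also make, was at 188 to 316 CPM in the KO group, against 40.6 to 62.0 CPM in WT. The part of these other cells in the level of Il4 was not tested. In these bulk libraries a larger share of cells with the mRNA and more mRNA per cell cannot be told apart.

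The other Th2 cytokines gave few counts. Il13, which acts on mucosal epithelium and smooth muscle, had 3, 6 and 3 counts in WT and 11, 1 and 5 in KO libraries. The summed counts were 12 and 17, and scaled by total counts the KO to WT ratio was 1.72 with an exact 95% counting interval of 0.773 to 3.94. Il5, the growth factor of eosinophils, had 2, 2 and 1 counts in WT and 4, 7 and 0 in KO. Its ratio was 2.67 with an interval of 0.854 to 9.79. For both genes the libraries of the groups overlapped, and a difference was not detectable at this depth. These intervals cover counting error only, not the spread between mice.

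Il4, Il13 and Il5 stand in 1 cluster on mouse chromosome 11, with Il4 at chr11:53602982-53618669, Il13 at chr11:53631324-53634702 and Il5 at chr11:53720794-53725106 (GRCm38), and the DNA repair gene Rad50 between Il13 and Il5. For Rad50 the log2FC was 0.10 (SE 0.08, FDR = 0.444 in the QLF test). On the other side of Il4 lies Kif3a, a kinesin motor subunit gene, 1.01 kb from the edge of the widest annotated extent of Il4. The Il4 3′ UTR window shown above, at chr11:53612497-53612513, lies further from Kif3a than that edge. Kif3a had 160, 231 and 190 counts in WT and 279, 165 and 252 in KO libraries, a log2FC of 0.60 (SE 0.16, FDR = 0.0433 in the QLF test). It was not called without KO replicate 1 (log2FC 0.57, FDR = 0.0704), nor without any other single library except KO replicate 2. Of 14 distinct neighbours of the 10 cytokine genes, other than cytokine genes of the 10 themselves, 7 were tested and Kif3a alone was called. Among all tested genes 18.8% were called, so 1 call among 7 neighbours does not stand out from the background share. Whether reads of Kif3a transcripts reached the Il4 count was not tested.

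Tnf, an inflammatory cytokine also made in quantity by macrophages, gave most of the counts, between 57.4% and 87.0% of the sum over the 10 genes in each library. Replicates 1, 2 and 3 had 48.7, 36.6 and 43.6 CPM in the WT group and 87.0, 46.4 and 69.2 CPM in the KO group. The lowest KO library, replicate 2, lay below the highest WT library, replicate 1. The mean was 43.0 ± 6.09 CPM in WT and 67.5 ± 20.4 CPM in KO mice (n = 3 each), with a log2FC of 0.74 (SE 0.22, 95% interval 0.23 to 1.25) that missed the threshold in the QLF test (FDR = 0.0549). DESeq2 called Tnf (log2FC 0.73, FDR = 0.00865), and 24.6% of all tested genes. Leaving out KO replicate 2 also put Tnf past the threshold (log2FC 0.94, FDR = 0.0117 in the QLF test), in a fit that called 12.3% of the tested genes higher. Without KO replicate 1, the library with the most macrophage transcripts, the log2FC was 0.50 (SE 0.18, FDR = 0.0897 in the QLF test). In KO replicates 2 and 3 the monocyte and macrophage list summed to 74.6 and 19.2 CPM, against at most 11.8 CPM in WT. Tnf was lower in replicate 2 than in replicate 3. Within the list, Csf1r was at 12.03 and 0.877 CPM in these libraries, against at most 0.844 CPM in WT. Cd68 was below WT, at 3.89 and 3.04 CPM against at least 4.52 CPM. The part of those transcripts in the level of Tnf was not tested. On TMM-scaled library sizes the groups no longer overlapped, and the exact two-sided permutation p moved from 0.2 to 0.1.

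Tnf lies at chr17:35199381-35202007 between the lymphotoxin genes Lta and Ltb, which encode related ligands of lymphoid tissue organisation. Ltb was at 552 ± 73.7 CPM in WT and 521 ± 57.8 CPM in KO mice (n = 3 each), with a log2FC of 0.00 (SE 0.12, 95% interval -0.28 to 0.28, FDR = 0.994 in the QLF test). Lta was at 72.3 ± 13 and 90.3 ± 7.25 CPM, with a log2FC of 0.41 (SE 0.13, FDR = 0.0709 in the QLF test).

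Ifng, the Th1 cytokine, varied widely within both groups, and the groups overlapped. WT replicates 1, 2 and 3 had 6.13, 13.2 and 24.97 CPM, and the KO replicates, in the same order, 14.6, 5.40 and 4.32 CPM. KO replicate 1 lay above the lowest pair of WT libraries, while KO replicates 2 and 3 lay below every WT library. The means were 14.8 ± 9.52 CPM in WT and 8.10 ± 5.63 CPM in KO mice (n = 3 each), a log2FC of -0.78 (SE 0.61, 95% interval -2.21 to 0.64, FDR = 0.402 in the QLF test). The exact two-sided permutation test gave p = 0.3. Leaving out KO replicate 1, which held transcripts of other cell types, moved the log2FC to -1.54 (SE 0.53, FDR = 0.0833 in the QLF test), and with no CPM filter as well to -1.57 (FDR = 0.0342, with 5.99% of the genes of that fit called lower). Leaving out WT replicate 3 moved it to -0.17 (FDR = 0.881 in the QLF test). A difference in Ifng mRNA of the size of the library spread was not detectable with 3 mice per group.

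Il21, the follicular helper cytokine, had 34, 95 and 89 counts in WT and 42, 6 and 6 counts in KO libraries. On the CPM scale WT replicates 1, 2 and 3 were at 2.19, 3.95 and 5.01, and the KO replicates, in the same order, at 2.26, 0.432 and 0.405. KO replicate 1 was just above the lowest WT library, and the other two KO libraries were far below all of them. The mean was 3.72 ± 1.42 CPM in WT and 1.03 ± 1.06 CPM in KO mice (n = 3 each), a log2FC of -1.72 (SE 0.66, 95% interval -3.27 to -0.16) that missed the threshold (FDR = 0.112 in the QLF test, and 0.0513 in DESeq2). Without KO replicate 1 the log2FC was -3.08 (SE 0.50, 95% interval -4.24 to -1.92, FDR = 0.00565 in the QLF test), with 7.59% of the tested genes called lower in that fit. Whether the Il21 counts of KO replicate 1 came from the other cell types seen in that library was not tested. Il2, the neighbour of Il21 and the growth factor on which Treg cells depend, had 0 to 3 counts in every library.

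Csf2, which encodes the myeloid growth factor GM-CSF, had 2, 2 and 1 counts in WT and 9, 3 and 9 in KO libraries. Each KO library was above each WT library in CPM, as was the case for 15% of all genes with a count. The mean was 0.0895 ± 0.0368 CPM in WT and 0.436 ± 0.200 CPM in KO mice (n = 3 each). The counts summed to 5 and 21, and the KO to WT ratio was 5.09 with an exact counting interval of 1.87 to 17.3. This interval covers counting error only, not the spread between mice. In a QLF fit with no CPM filter, in which 10.1% of 17585 genes were called, the log2FC was 2.28 (SE 0.65, FDR = 0.0678), and without KO replicate 1 it was 2.20 (SE 0.86, FDR = 0.115). The innate lymphoid list, whose cells can make GM-CSF, was also higher in each KO library, and its part was not tested. Csf2 was not called, and the exact permutation test gave p = 0.1.

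The Th17 cytokines were scarcely detected. Il17a had 0 counts in all 6 libraries, that is 0 of 57316307 counts in WT and 0 of 47307483 in KO, which allows levels of up to 0.0523 and 0.0634 CPM over the groups at a floor of 3 counts. Il22 was likewise at 0 throughout, as was Iltifb, a near-identical copy of Il22 nearby on chromosome 10, so that reads shared by the copies could have been lost to both. Il17f had 1, 2 and 2 counts in WT and 1, 5 and 1 in KO libraries, a ratio of 1.70 with an exact counting interval of 0.463 to 6.78.

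**Figure D3:**
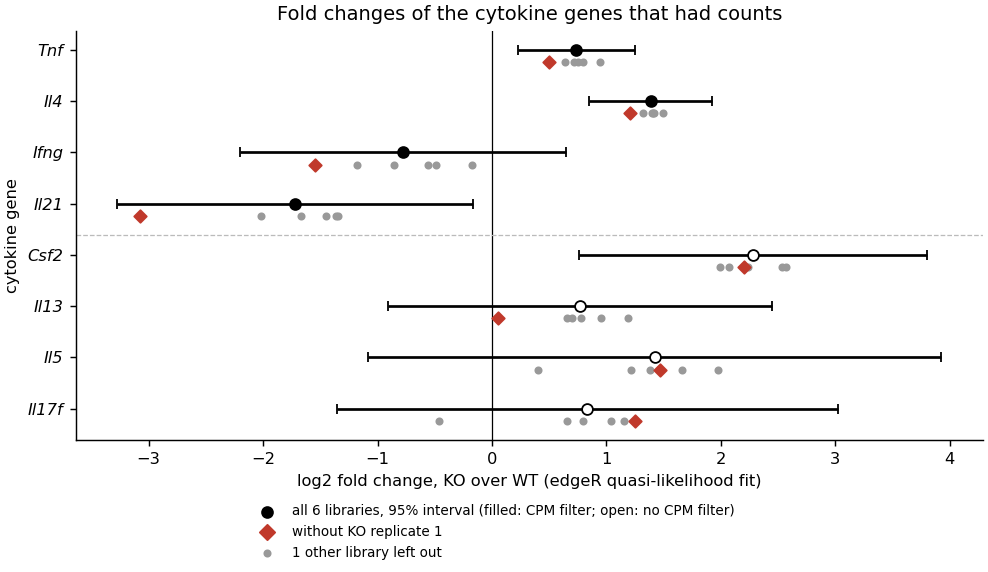
Points give the log2 fold change (KO over WT) of each cytokine gene with counts, with its 95% interval, from edgeR's QLF fit with the CPM filter (filled, upper 4 genes) or with no CPM filter (open, lower 4 genes). Red diamonds leave out KO replicate 1 and small grey points leave out 1 other library. Il21 moves from -1.72 to -3.08 without KO replicate 1, while the fits of Il4 stay between 1.21 and 1.49.

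Levels of different genes were compared per length, as CPM per kb of exon. In WT Treg cells the order was Tnf at 26.2, Ifng at 11.4, Il4 at 1.59 and Il21 at 0.707, and the libraries of neighbours in this order did not overlap. Il13 (0.169), Csf2 (0.112), Il5 (0.0582) and Il17f (0.0429) followed, each overlapping the next. In KO cells Tnf stood at 41.2, Ifng at 6.25 and Il4 at 3.92, and the libraries of Ifng and Il4 overlapped. Csf2 followed at 0.545, above Il13 (0.277) and Il21 (0.196), but the libraries of these neighbours overlapped. Using the longest transcript as the length put Il4 (7.95) above Ifng (6.70) and Il21 (0.336) above Il13 (0.277) in KO, and Il17f (0.0736) above Il5 (0.0582) in WT, so these orders depend on which exons are counted.

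The ratio of Il4 to Ifng within each library, a measure chosen after the values were seen, took the values 0.322, 0.160 and 0.0832 for WT replicates 1, 2 and 3. For the KO replicates, in the same order, it was 0.421, 0.788 and 1.12. All KO values were above all WT values, and KO replicate 1 was the nearest to WT. Since the measure was picked for this pattern, no test was run on it.

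**Figure D4:**
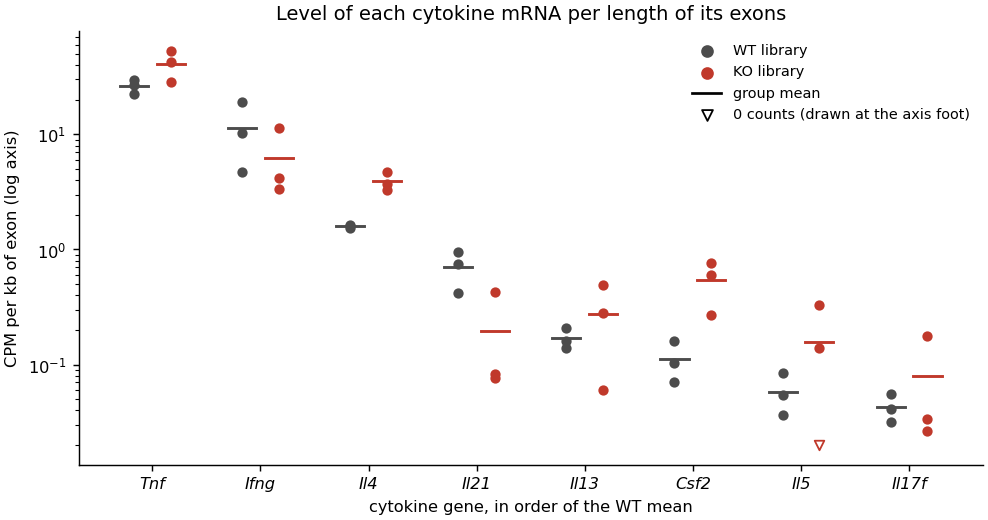
Points show each library's level in CPM per kb of exon on a log axis for the 8 cytokine genes with any count, WT in grey and KO in red, with a line at the group mean; a triangle marks a library with 0 counts. Tnf leads in both groups, from 26.2 in WT to 41.2 in KO, and the levels span more than 2 orders of magnitude.

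The tested genes whose pattern over the 6 libraries was most like that of each cytokine gene were found by the root mean square difference of centred log2 CPM, as a description. For Il4 these were Lamc1, a laminin chain (0.0544), and Laptm4a, a lysosomal membrane protein (0.0549), both called higher in KO with log2FC values of 1.34 and 1.35 (FDR = 0.00110 and 0.000996 in the QLF test). Both were picked for matching Il4 over the same libraries, so their calls are not independent evidence. Near to Tnf was Cyba, a subunit of the phagocyte NADPH oxidase (0.0945). Fam43a (0.156) and Dbn1 (0.244) came nearest to Ifng. Those nearest to Il21 were Cebpa, a myeloid transcription factor (0.355), and Zfp808 (0.425), at larger distances than for the other 3 genes.

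The genes around these cytokines were read in 5 lists, 88 genes in all, of which 70 were tested. Of these 14 were called higher and 9 lower in KO (32.9%, against 18.8% of all tested genes). Among 12 tested genes of other T cell cytokines and ligands, 4 fell and 0 rose (median log2FC -0.10, against 0.02 over all tested genes). Cd40lg, the ligand by which T cells help B cells, fell from 35.6 ± 10.6 to 14.6 ± 1.13 CPM (log2FC -1.21, SE 0.22, FDR = 0.0111 in the QLF test). Fasl, the death ligand, fell from 8.63 ± 3.13 to 1.77 ± 0.658 CPM (-2.19, SE 0.39, FDR = 0.0112), and Tnfsf8, the CD30 ligand, from 102 ± 10.1 to 43.8 ± 13.6 CPM (-1.14, SE 0.22, FDR = 0.0146). All 3 were also called without KO replicate 1, a fit in which 3 genes of the list and 17.3% of all tested genes were called, while Tnfsf8 was not called without WT replicate 2 or 3 (FDR up to 0.0591). Il10 and Areg, products of effector Treg cells also named after their values were seen, overlapped between the groups with FDR = 0.632 and 0.836.

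Of 11 tested receptor chains for the 10 cytokines, 4 rose and 0 fell (36.4%, against 18.8% of all tested genes), with a median of 0.43. Without KO replicate 1, 3 rose, in a fit that called 17.3% of all tested genes. The TNF receptor gene Tnfrsf1a rose from 38.5 ± 1.64 to 72.8 ± 21.8 CPM (log2FC 1.003, SE 0.20, FDR = 0.0148 in the QLF test). Ifngr1, the ligand-binding chain of the IFNγ receptor, rose from 201 ± 10.03 to 359 ± 94.9 CPM (0.92, SE 0.18, FDR = 0.0152). Both were highest in KO replicate 1. They were called without it, at log2FC values of 0.71 and 0.67, but not without WT replicate 1, 2 or 3, where the FDR reached 0.0697 for Tnfrsf1a and 0.0731 for Ifngr1. Il4ra, the chain shared by the IL-4 and IL-13 receptors, rose from 311 ± 6.61 to 396 ± 26 CPM (0.43, SE 0.09, FDR = 0.0159), a call lost without WT replicate 1, 2 or 3 or KO replicate 3 (FDR up to 0.0836). Csf2rb, the signaling chain of the GM-CSF receptor and abundant on myeloid cells, did not pass the filter and is named for its values, with 56.2 CPM in KO replicate 1 and at most 0.810 CPM in the other libraries.

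Of 22 tested lineage regulators, 5 rose and 3 fell (36.4%, against 18.8% of all tested genes). The counts were equal without KO replicate 1, in a fit that called 17.3% of all tested genes. There Stat3 lost its call (FDR = 0.0584) and Stat5a gained one (FDR = 0.0403). Eomes, a T-box factor that drives Ifng in cytotoxic cells, rose from 5.95 ± 1.34 to 35.7 ± 5.59 CPM (log2FC 2.68, SE 0.22, FDR = 0.000880 in the QLF test). It is also a gene of the CD8 T and NK cell markers above, and it was high in each KO library, at 37.8, 39.98 and 29.4 CPM. Ahr, a ligand-activated factor used by Th17 cells and by tissue Treg cells, rose with a log2FC of 1.07 (FDR = 0.000996), and Runx3, a partner of T-bet, with 1.06 (FDR = 0.00324). Bcl6, the factor of follicular T cells, fell from 69.0 ± 8.52 to 27.1 ± 5.62 CPM (-1.27, SE 0.18, FDR = 0.00497), as did Stat4 (-0.67, FDR = 0.00508) and Nfatc1 (-0.65, FDR = 0.0146), the last not called without WT replicate 2 or 3 (FDR up to 0.0615). Tbx21 and Gata3, the factors that define the Th1 and Th2 lineages, are named here after their values were seen and were not called, with log2FC values of 0.97 (FDR = 0.112) and -0.11 (FDR = 0.700).

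Of 13 tested surface receptors of helper subsets, 4 rose and 2 fell (46.2%, against 18.8% of all tested genes), with a median of 0.18. Without KO replicate 1 the counts were 4 and 3, and 17.3% of all tested genes were called. Cxcr5, the follicle-homing receptor, fell from 89.9 ± 16.0 to 21.9 ± 4.96 CPM (log2FC -1.95, SE 0.19, FDR = 0.00135 in the QLF test), and Ccr4 fell with -1.02 (FDR = 0.0108). Il12rb1, a chain of the IL-12 receptor, rose from 56.6 ± 10.4 to 150 ± 47.0 CPM (1.49, SE 0.24, FDR = 0.00741). Il12rb2, its other chain, rose with a log2FC of 3.19 (FDR = 0.0249), with KO replicate 1 far above the others, and with 1.83 (FDR = 0.00214) without that library, but it was not called without WT replicate 1, 2 or 3 (FDR up to 0.102). Of 12 genes that control cytokine mRNA decay, 1 was called (8.33%, against 18.8% of all tested genes): Arid5a, which stabilises cytokine mRNAs, rose from 149 ± 13.7 to 194 ± 28 CPM (0.47, SE 0.13, FDR = 0.0433 in the QLF test), a call lost without WT replicate 1, 2 or 3 or KO replicate 3 (FDR up to 0.166).

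**Figure D5:**
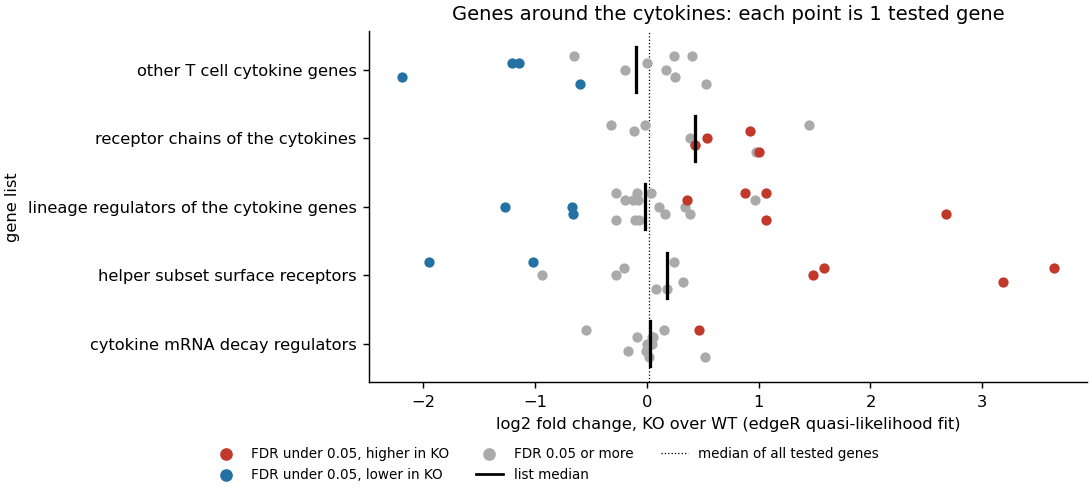
Each point is 1 tested gene of the 5 lists, placed by its log2 fold change (KO over WT); red and blue points passed the FDR threshold of the QLF test, black lines are list medians and the dotted line is the median of all tested genes (0.02). The called genes of the other T cell cytokine list lie to the left (4 of 12) and those of the receptor list to the right (4 of 11). Among all tested genes 18.8% were called.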

How the data were processed

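The authors aligned 51-base single-end reads to mm10 with HISAT and counted them per gene with featureCounts, unstranded, and the deposited values are these raw counts, not normalized. The gene annotation used for counting is not given in the sources used here, nor how reads with several matches were handled. The exons of Il5, Il21 and Csf2 overlap antisense gene models of GENCODE vM21, and those of Ifng a model on the same strand, from which their reads cannot be told apart.

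The cytokine genes and gene lists were chosen with earlier results of these data known, so a count within them is not independent evidence. Tested were genes with CPM above 1 in at least 3 libraries (edgeR 4.0.16, R 4.3.3, TMM, library sizes recomputed after the filter, QLF test not robust, Benjamini-Hochberg over 11658 genes, threshold 0.05). CPM values use total counts. DESeq2 1.42.0 was run on the same genes without independent filtering. Count intervals are exact Poisson or binomial at 95% and leave out the spread between mice. The fitting script was checked on simulated counts. Of the 24421 genes, 23376 were found by symbol in GENCODE vM21, from which lengths and 3′ UTRs were taken. All sample columns were used. Named from each list were the 3 genes called higher and the 3 called lower with the smallest p, and for each tested cytokine gene the 2 genes of most similar pattern (prior count 2) and the nearest gene on each side; the values of some genes under this rule are not reported here. Alternatives covered normalization, filters, DESeq2, the robust fit, agreement of 3 edgeR tests, the block on replicate number, leaving out each library, the pseudocount, the floor and the transcript length. The fits that combined no CPM filter with leaving out a library, and the ratio of Il4 to Ifng, were added after the data had been seen. Replicates of a group came from separate mice and differed by far more than sampling noise.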

Additional observations from a re-analysis of the deposited data

How the results depend on the processing

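The call of Il4 held in all 14 alternatives planned for it (log2 fold change 1.21 to 1.49), and no log2 fold change of the 4 tested cytokine genes changed sign. The number of cytokine genes called was 1, and 2 under DESeq2 (Il4 and Tnf). It lay between 1 and 2 when a library was left out: Tnf was called as well without KO replicate 2, and Il21 without KO replicate 1. With replicate number as a block 2 cytokine genes were called, Il4 (FDR = 0.0286) and Tnf (log2 fold change 0.70, FDR = 0.0226) in the QLF test, and 1606 of all tested genes. The labels do not say that a replicate number marks a shared litter or day, and same-numbered WT and KO libraries deviated from their group means with correlations of 0.07, -0.01 and -0.19, so the numbers were not taken to pair the mice. Leaving out a library gave between 10 and 28 called genes in the 5 lists (23 with all libraries) and between 691 and 2340 among all tested genes (2197), with the lower values where a WT library was left out (12, 10 and 11 list genes, and 1022, 691 and 790 of all genes, without WT replicates 1, 2 and 3). At a floor of 10 counts 5 cytokine genes were at the floor in every library, against 2 at a floor of 3. In the permutation contrast of log2(CPM + 0.5), Il13 ranged from -0.0229 (without KO replicate 1) to 0.443 and Il17f from -0.0650 (without KO replicate 2) to 0.253 over the fits that left out 1 library, so both changed sign. The cause of these shifts was not tested. Depth limits the 6 untested cytokine genes, for which 3 counts equal 0.125 to 0.216 CPM.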

Other observations

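Among WT Treg cells, Ifng differed widely between mice. It was 4.07 times as high in WT replicate 3 as in WT replicate 1, where the median tested gene differed by 1.19 times between its highest and lowest WT library. A ratio of 3 or more was seen in 143 of 11635 tested genes (1.23%), and in 91 of the 143 the lowest library was WT replicate 1 and the highest WT replicate 3. Among them, named after their values were seen, were Il10, the suppressive cytokine, with 5.36, 16.4 and 34.9 CPM in WT replicates 1, 2 and 3, and Areg, a tissue repair factor, with 2.84, 6.65 and 27.7 CPM. Ctla4, the inhibitory receptor, had 330, 638 and 1177 CPM, and Zfp36, whose product binds AU-rich elements and speeds mRNA decay, 322, 843 and 1063 CPM in the same libraries. Other genes of activated Treg cells, also named after their values were seen, did not share a single pattern. Icos had 252, 313 and 256 CPM and Tnfrsf18 218, 177 and 174 CPM in the same libraries. Ccr8, at 33.4, 34.5 and 64.0 CPM, and Irf4, at 103, 106 and 152 CPM, were highest in WT replicate 3. Il4 differed by 1.07 times and Tnf by 1.33 times between WT libraries. In KO replicates 1, 2 and 3 Il10 had 46.8, 12.5 and 18.3 CPM and Areg 13.1, 13.8 and 14.9 CPM.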
